A study of Homo sapiens with 6 samples.

Results

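The genes described here are DDIT4, the sestrins SESN1, SESN2 and SESN3, the TSC subunits TSC1 and TSC2, DEPTOR, MTOR, RPTOR and EIF4EBP1. They are inhibitors of the mTORC1 kinase that answer to stress and nutrients, the core subunits of the kinase, and one of its substrates, so MTOR and RPTOR are not brakes themselves. These 10 genes of the 33900 in the gene table were found by symbol, and they were chosen with the result of the comparison below already known. Their differences between the groups are therefore given as a description. Calls from the fit across all genes are stated for them without p-values and are not read as a test of the 10. LX-2, an established cell line, derives from human hepatic stellate cells, which lay down collagen in the liver when activated, and the labels give the genotype of all samples as WT. RNA was sequenced from 3 samples that had received rhSema3C (recombinant human Sema3C, a secreted semaphorin) at 300 ng/ml for 48 h and from 3 samples that had received PBS for the same time. The comparison asks how expression in these cells differs with rhSema3C, in a single cell line at a single dose and time.

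mTORC1 is a protein kinase complex, built on the catalytic subunit MTOR and the scaffold RPTOR (raptor), that drives translation and restrains autophagy when growth factors, energy and amino acids are at hand. Growth factor signals reach it through the GTPase RHEB, which the TSC complex of TSC1, TSC2 and TBC1D7 switches off, and DDIT4 (REDD1) acts on the TSC side of the pathway. Amino acid signals reach it through the Rag GTPases on the lysosome, which GATOR1 holds off, GATOR2 frees, and sestrins restrain by binding GATOR2. Among its substrates are the 4E-BPs, which block the cap-binding factor EIF4E until mTORC1 phosphorylates them. In activated stellate cells the pathway is known for its part in growth and collagen production. None of the proteins or their phosphorylation was measured here, since the data are of RNA only.

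The total counts on genes lay between 68267808 and 89245585 per sample. Of the 33900 genes, 14178 had a mean FPKM (fragments scaled to transcript length and library size, as deposited) of at least 0.5 and were tested with edgeR. CPM below is the count scaled to a library size corrected by edgeR's TMM factors, which were 0.958 to 0.968 for PBS and 1.03 to 1.04 for rhSema3C. The log2 fold change of the median gene was 0.02, and it was 0.13 with library size alone and 0.23 on values rescaled to TPM, so small differences depend on the scaling. Across 14096 genes with a known sequence, the log2 fold change also ran with the GC content of the transcript (Spearman's rho of -0.48, across genes that share libraries). Values with the GC and length trend removed are given for only part of the genes named below. The log2 fold changes of other named genes moved as well, in either direction. With the trend removed, TFE3 went from -0.54 to -0.26 and SLC38A9 from 0.63 to 0.30. WDR24 went from 0.34 to 0.62 and ULK1 from 0.41 to 0.67. Of the 10 stellate cell markers, 9 had a mean FPKM of at least 0.5, all except COL1A2. Their summed FPKM was 1508 to 1559 with PBS and 1205 to 1271 with rhSema3C. Most of this sum was VIM, with a mean of 1035.5 against 834.5, and the markers did not move as a group. COL1A1, ACTA2, TIMP1, SPARC and THY1 were also lower with rhSema3C. LOX was higher, at 8.02 against 17.8, as were HAND2 and, with overlapping groups, PDGFRB. The summed FPKM of the hepatocyte list was 2.63 to 3.18 against 3.52 to 4.16, nearly all of it SERPINA1, with ALB, APOA1 and FGB listed at 0 in all rhSema3C samples. That of the endothelial list was 1.47 to 1.88 against 1.94 to 2.36. Its VWF had a mean of 0.101 against 0.659, KDR 0.723 against 0.720 and TEK 0.732 against 0.636. The sum of the cholangiocyte list was 12.4 to 14.7 against 8.60 to 9.32, with SOX9 at 9.94 against 5.45 and KRT7 at 2.95 against 3.21. In the leukocyte list the sum was 95.3 to 104.0 against 67.5 to 73.2, nearly all of it CD68, while the means of PTPRC, CSF1R and LYZ over the 6 samples were under 0.5. The part of these shifts in the results below was not tested, and in bulk RNA fewer cells of a type cannot be told apart from less RNA per cell.

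Of the 8 genes that were tested, 5 were higher with rhSema3C (DDIT4, SESN1, SESN2, TSC1 and EIF4EBP1) and 1 was lower (RPTOR) at an adjusted p below 0.05 in the fit across all genes. TSC2 and MTOR passed in neither direction. At this threshold 32.2% of all genes tested were higher and 30.8% were lower, so that 51.1% of all calls were rises, a share that was 62.4% with library size alone, 74.1% on TPM and 44.5% with the GC and length trend removed. With a fold change above 2 in addition, DDIT4 and SESN2 were higher and none of the 8 was lower, against 3.23% of all genes higher and 2% lower. In CPM the groups did not overlap for 7 of the 8, 5 of them higher and 2 of them lower with rhSema3C, against 34.6% and 33.3% of all genes tested. Since the genes were chosen by this comparison, nothing is read from these counts. The median log2 fold change of the 8 was 0.43, and it was 0.02 over all genes tested. SESN3 and DEPTOR, with a mean FPKM of 0.457 and 0.126 over the 6 samples, fell under the level filter and are described from a fit on all 33900 genes.

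**Figure D1:**
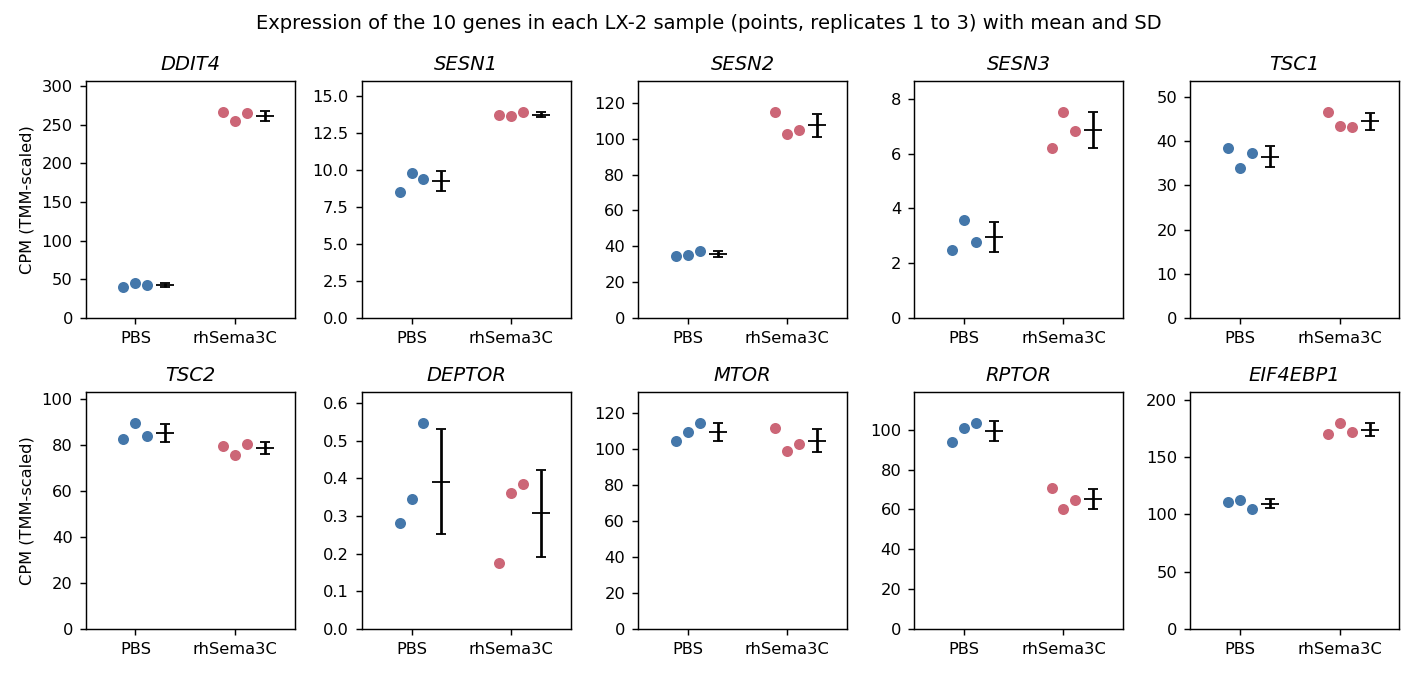
Each panel plots 1 of the 10 genes, with CPM on an axis that starts at 0, replicates 1 to 3 from left to right in each group, and a bar for the mean and SD. The rhSema3C samples of DDIT4 lie between 254.3 and 266.4 CPM and those of PBS between 40.5 and 45.1, whereas the groups of MTOR and DEPTOR overlap.

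DDIT4 encodes REDD1, a short-lived inhibitor of mTORC1 that is induced by hypoxia, DNA damage, glucocorticoids and the integrated stress response. In the files it is ENSG00000168209 at chr10:72273924-72276036 on the plus strand of GRCh38, and no other annotated gene overlaps it. Its level was 40.5, 45.1 and 42.3 CPM in PBS replicates 1, 2 and 3. In the rhSema3C replicates it was 266.4, 254.3 and 264.4 CPM. All rhSema3C samples were far above all PBS samples, and the spread within each group was small beside the gap. The mean went from 42.6 ± 2.30 to 261.7 ± 6.49 CPM (SD, n = 3), a log2 fold change of 2.62 (SE 0.05), or 6.14-fold. By size of the rise this was place 17 among the 14178 genes tested. In FPKM, which the authors scaled to a length per gene, its level rose from 19.5 ± 0.956 to 128.3 ± 3.16 (SD, n = 3). That was from the 83.2 to the 98.3 percentile of the tested genes. The log2 fold change stayed between 2.58 and 2.86 over all settings tried.

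The 250 bases before the DDIT4 start are shown because the gene had the largest difference of the 10. A few short motifs were looked for in them, and sites for glucocorticoids or the response to DNA damage were not among these. The sequence is RefSeq's, from GRCh38.p14 at chr10:72273674-72273923, plus strand, with motif matches in capitals.
DDIT4: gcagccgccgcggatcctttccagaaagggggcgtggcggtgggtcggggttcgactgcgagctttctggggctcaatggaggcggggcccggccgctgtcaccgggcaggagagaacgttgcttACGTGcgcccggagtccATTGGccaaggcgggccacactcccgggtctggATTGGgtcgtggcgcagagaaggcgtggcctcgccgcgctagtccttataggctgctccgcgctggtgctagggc

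Motifs were searched on both strands as TGATGNAA (core of the amino acid response element), ACGTG (core of the hypoxia response element), CCAAT (the CCAAT box, ATTGG on the other strand) and GTAAACA (a forkhead site). The DDIT4 window held 1 ACGTG that begins 125 bases before the start and 2 ATTGG that begin 108 and 75 bases before it. It held no TGATGNAA and no GTAAACA. Of the 35116 such windows in the table, 18.51% held ACGTG, 32.01% CCAAT, 3.14% TGATGNAA and 2.98% GTAAACA. These matches describe the letters only and are not known sites of a factor in these cells.

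The sestrins SESN1, SESN2 and SESN3 are stress-inducible proteins that bind GATOR2, and SESN2 is best known as a leucine sensor. SESN2 is ENSG00000130766 at chr1:28259518-28282491 on the plus strand. It was read at 34.5, 35.4 and 37.6 CPM in PBS replicates 1, 2 and 3, and with rhSema3C at 114.8, 102.4 and 104.8 CPM. The groups were well apart, with rhSema3C replicate 1 the highest of the 6. The mean rose from 35.8 ± 1.62 to 107.3 ± 6.58 CPM (SD, n = 3), a log2 fold change of 1.58 (SE 0.06), or 3.00-fold, at place 114 among the rises. In FPKM the level rose from 9.70 ± 0.466 to 31.2 ± 1.85 (SD, n = 3). Over all settings its log2 fold change lay between 1.53 and 1.86.

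The window before the SESN2 start, from the same RefSeq build at chr1:28259268-28259517 on the plus strand, is shown for comparison with that of DDIT4.
SESN2: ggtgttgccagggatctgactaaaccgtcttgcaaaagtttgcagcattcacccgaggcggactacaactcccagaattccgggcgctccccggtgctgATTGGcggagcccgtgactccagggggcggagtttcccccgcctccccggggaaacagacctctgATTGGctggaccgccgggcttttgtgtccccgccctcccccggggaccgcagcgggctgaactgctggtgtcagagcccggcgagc

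SESN2 held 2 ATTGG, 151 and 86 bases before the start, and none of the other 3 motifs. Of the 10 genes 8 had an entry in the promoter table, with 11 windows in all, and DEPTOR and EIF4EBP1 had none. In MTOR there were 3 CCAAT boxes and in each of 2 SESN1 windows there was 1. TGATGNAA was found in 1 TSC2 window, as TGATGCAA beginning 110 bases before the start, where it overlapped an ACGTG read on both strands. The windows of TSC1, SESN3 and RPTOR held none of the 4 motifs.

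SESN1 (ENSG00000080546, chr6:108986437-109094819, minus strand) was read at 8.50, 9.82 and 9.40 CPM in the PBS replicates. With rhSema3C it was 13.7, 13.6 and 13.9 CPM. The groups did not overlap, and the rhSema3C samples lay closer together than the PBS samples. The mean rose from 9.24 ± 0.675 to 13.8 ± 0.154 CPM (SD, n = 3), a log2 fold change of 0.58 (SE 0.10). With the GC and length trend removed the value was 0.35, the lowest of all settings, and on TPM it was 0.71, the highest.

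SESN3 (ENSG00000149212, chr11:95165513-95232541, minus strand), a FOXO target, had the lowest level of the 3. Its counts were 214, 249 and 183 with PBS and 536, 687 and 569 with rhSema3C, which is 2.50, 3.57 and 2.78 against 6.22, 7.51 and 6.83 CPM. At this low level the PBS and rhSema3C samples still did not overlap. In the fit on all genes the log2 fold change was 1.20 (SE 0.17), or 2.30-fold.

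Set against each other in FPKM, SESN2 made up most of the sestrin sum in both groups. Its share of the summed FPKM of the 3 sestrins was 84.1%, 82.0% and 83.9% with PBS and 91.0%, 89.8% and 90.0% with rhSema3C, in replicates 1, 2 and 3. The sum itself went from 11.6 ± 0.535 to 34.6 ± 1.78 FPKM (SD, n = 3). All 3 sestrins were higher in every rhSema3C sample than in any PBS sample, and the share of SESN2 was higher as well.

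TSC1 (hamartin) stabilises TSC2, and TSC2 (tuberin) is the subunit that acts on RHEB. TSC1 (ENSG00000165699, chr9:132891348-132946874, minus strand) was at 38.3, 33.8 and 37.2 CPM with PBS and at 46.5, 43.4 and 43.2 CPM with rhSema3C. The groups did not overlap, but the step between them was small. The mean was 36.4 ± 2.37 against 44.4 ± 1.84 CPM (SD, n = 3), with a log2 fold change of 0.28 (SE 0.07). Over the settings it lay between 0.23 and 0.46.

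TSC2 (ENSG00000103197, chr16:2047967-2089245, plus strand) was at 82.4, 89.7 and 83.8 CPM with PBS and at 79.6, 75.6 and 80.4 CPM with rhSema3C. In CPM all rhSema3C samples were below all PBS samples by a narrow margin, while in FPKM the groups overlapped, at 4.17 ± 0.165 against 4.12 ± 0.137 (SD, n = 3). The log2 fold change was -0.12 (SE 0.05), and it was 0.10 on TPM and 0.14 with the GC and length trend removed, so no direction is given for TSC2. It was called lower with median-of-ratios factors, with DESeq2 and without PBS replicate 1, and called higher with that trend removed. Its end overlaps PKD1 on the other strand, with a mean FPKM of 6.82, and whether the counting used strand is not given in the sources used here. In FPKM the ratio of TSC1 to TSC2 was 0.505, 0.409 and 0.482 in replicates 1, 2 and 3 of PBS and 0.634, 0.624 and 0.585 in those of rhSema3C. This ratio was higher in every rhSema3C sample, and the difference between the log2 fold changes of the 2 genes went from 0.40 to 0.11 with the trend removed. The ratio of DDIT4 to TSC2 went from 4.67 ± 0.0660 to 31.1 ± 0.351 (SD, n = 3).

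MTOR, the kinase itself (ENSG00000198793, chr1:11106535-11262551, minus strand), was at 104.2, 109.0 and 114.5 CPM with PBS and at 111.5, 99.0 and 102.8 CPM with rhSema3C. The groups overlapped. The means were 109.2 ± 5.11 and 104.4 ± 6.41 CPM (SD, n = 3), and the log2 fold change of -0.06 (SE 0.05) was positive under other scalings, up to 0.16 on TPM. A p that misses the threshold does not show that MTOR was at the same level in both groups.

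RPTOR, the scaffold that brings substrates to the kinase (ENSG00000141564, chr17:80544819-80966368, plus strand), was the only one of the 8 tested genes that was called lower. It was at 94.1, 100.9 and 103.6 CPM with PBS and at 70.5, 60.3 and 65.0 CPM with rhSema3C. The groups were clearly apart. The mean went from 99.5 ± 4.89 to 65.3 ± 5.10 CPM (SD, n = 3), a log2 fold change of -0.61 (SE 0.06). With the GC and length trend removed it was -0.35, the smallest difference of all settings, and the transcript has a GC content of 59.8% against a median of 48.7% over genes.

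Measured within each sample in FPKM, the RPTOR level was 1.07, 1.09 and 1.07 times that of MTOR with PBS and 0.746, 0.720 and 0.746 times with rhSema3C, in replicates 1, 2 and 3. The ratio of RPTOR, which defines mTORC1, to RICTOR, the matching subunit of mTORC2, went from 2.74 ± 0.218 to 1.13 ± 0.181 (SD, n = 3). Both ratios were lower in every rhSema3C sample than in any PBS sample. By the fitted fold changes RPTOR over MTOR was 1.46-fold lower, or 1.31-fold lower with the GC and length trend removed. The transcripts of RPTOR and RICTOR have a GC content of 59.8% and 36.5%, and by the fitted fold changes their ratio was 2.43-fold lower, or 1.57-fold lower with the GC and length trend removed.

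DEPTOR, a subunit that inhibits both mTOR complexes (ENSG00000155792), was hardly detected. Its counts were 24, 24 and 36 with PBS and 15, 33 and 32 with rhSema3C, or 0.280, 0.344 and 0.547 against 0.174, 0.361 and 0.384 CPM. The groups overlapped. In the fit on all genes the log2 fold change was -0.35 with an SE of 0.53, so a difference of this size was not detectable in these samples.

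EIF4EBP1, the 4E-BP whose phosphorylation by mTORC1 releases EIF4E (ENSG00000187840), was the most abundant of the 10 in FPKM. It was at 110.8, 112.3 and 105.1 CPM with PBS and at 170.2, 180.2 and 172.1 CPM with rhSema3C. The groups did not overlap. The mean rose from 109.4 ± 3.80 to 174.2 ± 5.27 CPM (SD, n = 3), a log2 fold change of 0.67 (SE 0.05), or 1.59-fold, which lay between 0.64 and 0.90 over the settings. In FPKM its level went from 116.6 ± 3.57 to 199.3 ± 6.13 (SD, n = 3).

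Of the other 4E-BPs, EIF4EBP2 fell from 146.2 ± 2.61 to 102.1 ± 2.39 CPM (SD, n = 3), with a log2 fold change of -0.52 and an adjusted p of 1.75e-09 in the edgeR fit, the opposite direction to EIF4EBP1. EIF4EBP3 was under the level filter, with 4, 11 and 2 counts in the PBS samples and 13, 20 and 17 in the rhSema3C samples. EIF4EBP1 made up 86.4% ± 0.476 of the summed 4E-BP FPKM with PBS and 93.4% ± 0.294 with rhSema3C (SD, n = 3). EIF4E, the factor they bind, was at 40.2 ± 2.80 and 41.4 ± 2.76 CPM (SD, n = 3), and its log2 fold change of 0.04 did not pass (edgeR adjusted p of 0.62). The ratio of the summed 4E-BPs to EIF4E in FPKM was 48.2, 55.7 and 47.9 in the PBS replicates. In the rhSema3C replicates it was 74.7, 69.2 and 72.6, higher in every sample. The difference between the log2 fold changes of EIF4EBP1 and EIF4E was 0.63, and 1.21 with the GC and length trend removed.

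**Figure D2:**
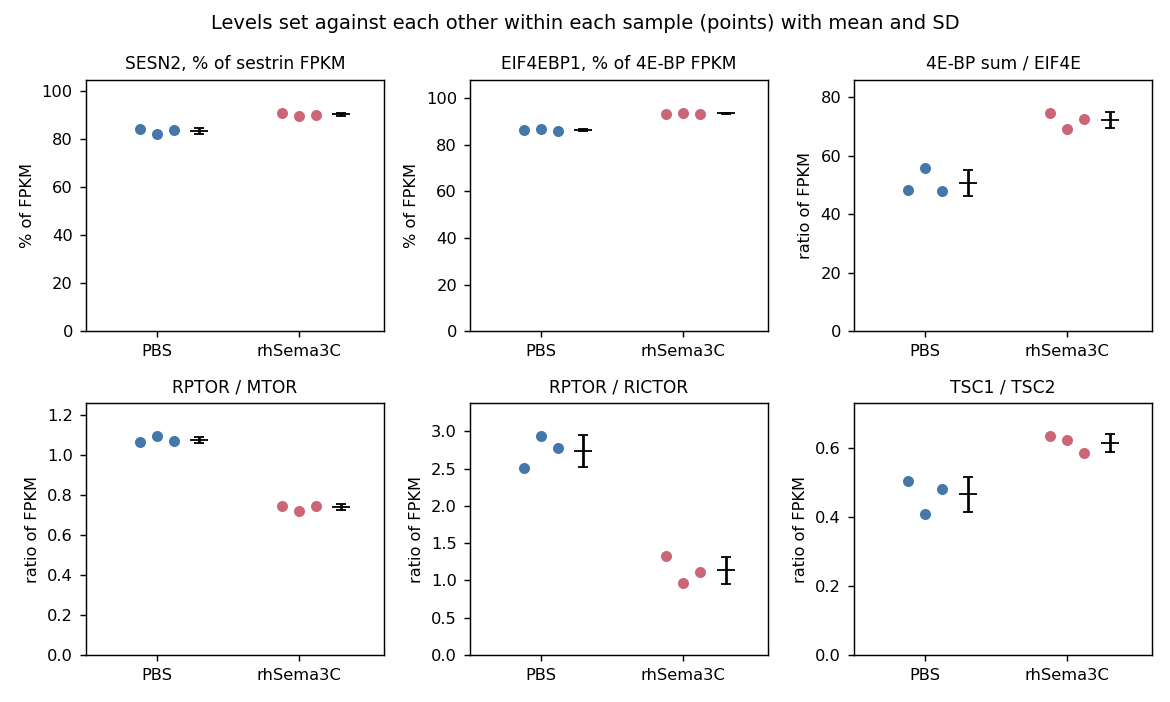
Each panel plots a ratio or share of FPKM values formed within each sample, with replicates 1 to 3 from left to right in each group and a bar for the mean and SD, on axes that start at 0. None of the 6 measures overlaps between the groups, and RPTOR over MTOR falls from 1.08 ± 0.0149 to 0.737 ± 0.0151. Among all single genes tested, 34.6% were higher and 33.3% lower without overlap in CPM. The share among ratios of other genes was not worked out, so nothing is read from this count.

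In order of FPKM with PBS the genes ran EIF4EBP1, DDIT4, SESN2, RPTOR, MTOR, TSC2, TSC1, SESN1, SESN3 and DEPTOR. Neighbours whose samples overlapped in this order were SESN2 with RPTOR, RPTOR with MTOR, and TSC1 with SESN1. With rhSema3C the order was EIF4EBP1, DDIT4, SESN2, MTOR, RPTOR, TSC2, SESN1, TSC1, SESN3 and DEPTOR, and no neighbours overlapped. EIF4EBP1 exceeded DDIT4 in both groups, but the ratio of DDIT4 to EIF4EBP1 went from 0.167 ± 0.00889 to 0.644 ± 0.0349 (SD, n = 3). SESN2 moved from the 68.6 to the 90.1 percentile of the tested genes and RPTOR from the 66.9 to the 56.0 percentile. The order between genes depends on the lengths behind the deposited FPKM, which are not given. With PBS, TSC2 was above SESN2 in CPM (85.3 against 35.8) but below it in FPKM (4.17 against 9.70). Their longest GENCODE transcripts, of 6344 and 3453 bases, would not give this order. Levels of different genes, and the size of ratios between them, are therefore not read as amounts of RNA.

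**Figure D3:**
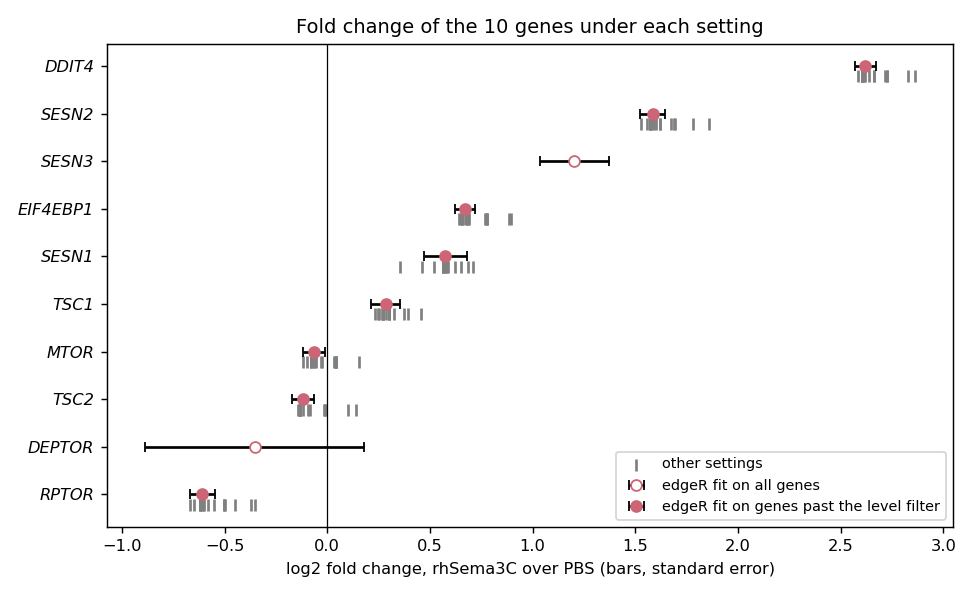
The horizontal axis gives the log2 fold change of each of the 10 genes, rhSema3C over PBS, with bars for the standard error, open circles for the 2 genes fitted without the level filter, and grey ticks for the other settings. DDIT4 sits at 2.62 and RPTOR at -0.61, and the ticks of MTOR and TSC2 fall on both sides of 0.

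For DDIT4, SESN2 and EIF4EBP1, the genes whose pattern over the 6 samples was most alike were found among the 11485 symbol-bearing genes whose mean FPKM reached 1, by the root mean square distance of log2 CPM from the PBS mean. Nearest to DDIT4 were NDRG1 (distance 0.140, from 52.3 to 285.1 CPM), ALDH1L2 (0.173), IL24 (0.216), BEX2 (0.218) and PSAT1 (0.224). Only 2 genes lay within 0.2 of DDIT4. Nearest to SESN2 were SYT1 (0.0674), XPOT (0.0817), PRUNE2 (0.0879), PCK2 (0.0921) and CHAC1 (0.0956), with 48 genes within 0.2. Nearest to EIF4EBP1 were CLDN12 (0.0219), QRSL1 (0.0235), ATP2C1 (0.0262), SMAD2 (0.0265) and SBF2 (0.0304), and with 1576 genes within 0.2 its pattern was a common one. The distances rest on 6 samples in 2 groups and describe likeness in this comparison alone.

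The rest of the pathway was described from 9 lists of mTORC1 genes that hold none of the 10. Of their 75 tested genes, 24 rose and 28 fell with rhSema3C at an adjusted p below 0.05 in the edgeR fit, and 23 passed in neither direction. Their median log2 fold change was -0.05, against 0.02 over all genes tested. Over all genes tested, 32.2% were called higher and 30.8% lower. With the GC and length trend removed, 3593 of the 14178 genes were higher and 4489 lower. The numbers were 5708 and 3436 with library size alone, and 6941 and 2429 on TPM. Counts near these shares, here and in the lists below, are not read as a result about the genes. At a fold change above 2 none was higher, and DDIT4L alone was lower. With the GC and length trend removed, 17 of the 75 were higher and 32 lower, of which 13 and 22 were also called in that direction in the first fit. The balance turned with the scaling, to 32 higher and 23 lower with library size alone and 37 and 17 on TPM, so no direction is given for the pathway as a whole.

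Among the partners of MTOR and RPTOR, 6 of 8 fell and 1 rose, with a median of -0.31. With the GC and length trend removed 5 fell, with library size alone 4 and on TPM 3, with 1 rise in each case. AKT1S1 (PRAS40), an inhibitory mTORC1 subunit, fell from 161.1 ± 4.33 to 88.3 ± 1.78 CPM (log2 fold change -0.87, SE 0.05, edgeR adjusted p of 4.91e-13). TELO2, which helps fold the kinase, fell from 82.8 ± 4.32 to 46.9 ± 2.89 CPM (log2 fold change -0.82). RICTOR rose from 47.8 ± 2.29 to 76.3 ± 6.26 CPM (log2 fold change 0.67, edgeR adjusted p of 6.43e-09), and its log2 fold change was 0.30 with the GC and length trend removed. Among the mTORC2 subunits listed, RICTOR was the only one called higher. MAPKAP1 (log2 fold change -0.35, edgeR adjusted p of 3.39e-06) and PRR5L (-0.52, 0.00019) fell, and PRR5 was at -0.22 without passing (0.094). The values of MAPKAP1, PRR5L and PRR5 under the other settings are not given here.

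Beside TSC1 and TSC2, the third subunit TBC1D7 was at 18.3 ± 1.32 and 16.6 ± 0.582 CPM (SD, n = 3), with a log2 fold change of -0.14 that did not pass (edgeR adjusted p of 0.18). It was 0.08 on TPM and passed at -0.44 with the GC and length trend removed. RHEB, the GTPase that activates mTORC1, rose from 85.4 ± 1.80 to 100.1 ± 1.86 CPM (log2 fold change 0.23), and its paralogue RHEBL1 rose with a log2 fold change of 0.27 (edgeR adjusted p of 0.039), a call that was lost without PBS replicate 1 (adjusted p of 0.091), PBS replicate 3 (0.19) or rhSema3C replicate 3 (0.12). DDIT4L, the paralogue of DDIT4, fell from 4.05 ± 0.733 to 1.72 ± 0.504 CPM (log2 fold change -1.24, edgeR adjusted p of 7.01e-05), the opposite direction to DDIT4.

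In the amino acid branch, where the sestrins act, the lists were mixed. Of the 5 GATOR2 genes 3 rose and 1 fell, and 1 and 1 with the GC and length trend removed, with SEH1L at a log2 fold change of 0.36, WDR24 at 0.34, MIOS at 0.31, WDR59 at 0.01 (edgeR adjusted p of 0.90, with either sign over the settings) and SEC13 at -0.38. SEH1L and MIOS no longer passed with the GC and length trend removed (adjusted p of 0.39 and 0.72), and MIOS, at an adjusted p of 0.026, was lost without PBS replicate 1 (0.060), PBS replicate 2 (0.054), rhSema3C replicate 1 (0.060) or rhSema3C replicate 2 (0.094). Of the 10 genes of GATOR1, KICSTOR and the nutrient sensors, 3 rose and 3 fell (5 and 1 with the trend removed), among them the KICSTOR subunit C12orf66 (log2 fold change 0.71) and the arginine sensor CASTOR2 (-0.60). BMT2 (SAMTOR), a sensor of S-adenosylmethionine, and KPTN of KICSTOR were at 0.46 and -0.33, and neither passed with the GC and length trend removed. On the lysosomal platform 4 of 13 rose and 3 fell, against 3 and 6 with the trend removed and 8 and 1 on TPM. SLC38A9, an arginine-sensing transporter, rose from 28.4 ± 0.632 to 44.0 ± 0.613 CPM (log2 fold change 0.63), LAMTOR1, which anchors Ragulator, fell from 133.2 ± 4.05 to 88.5 ± 2.67 CPM (-0.59), and RRAGB and LAMTOR4 were at 0.40 and -0.35, the latter not passing with the trend removed.

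In the energy and growth factor branches upstream of TSC2, the calls were also mixed. Of 8 tested genes of AMPK and its kinase LKB1, 3 rose and 3 fell, with the subunits PRKAB2 and PRKAG1 at log2 fold changes of 0.82 and 0.46, PRKAB1 at -0.38 and STK11 (LKB1) at -0.43. Of 10 PI3K and AKT genes 4 rose and 3 fell, but with the GC and length trend removed 4 fell and none rose, and on TPM 6 rose and 2 fell. AKT1 fell from 318.6 ± 12.3 to 213.1 ± 10.3 CPM (log2 fold change -0.58, edgeR adjusted p of 6.26e-10) and AKT2 from 233.2 ± 8.62 to 149.8 ± 3.48 CPM (-0.64). The regulatory subunit PIK3R1 was at 0.38 and lost its call with the trend removed (adjusted p of 0.51).

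Downstream, beside EIF4EBP1, 3 of 10 tested translation effectors rose and 4 fell, against 1 and 5 with the GC and length trend removed and 4 and 3 on TPM. The scaffold EIF4G1 fell from 744.1 ± 36.6 to 435.1 ± 13.5 CPM (log2 fold change -0.77, edgeR adjusted p of 2.36e-12) and the S6 kinase RPS6KB2 from 150.5 ± 2.29 to 91.9 ± 2.51 CPM (-0.71). EIF4B, a helper of the initiation helicase, rose from 275.7 ± 9.13 to 410.6 ± 8.04 CPM (0.57), and PDCD4, an inhibitor of that helicase, was at 0.43 but did not pass with the trend removed (adjusted p of 0.19). Of 7 autophagy and lysosome effectors 4 fell and 1 rose, and on TPM 3 fell and 2 rose. DAP, a suppressor of autophagy, and the transcription factor TFE3 were at -0.58 and -0.54, and the autophagy kinase ULK1 rose from 68.1 ± 3.35 to 90.3 ± 2.03 CPM (0.41).

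**Figure D4:**
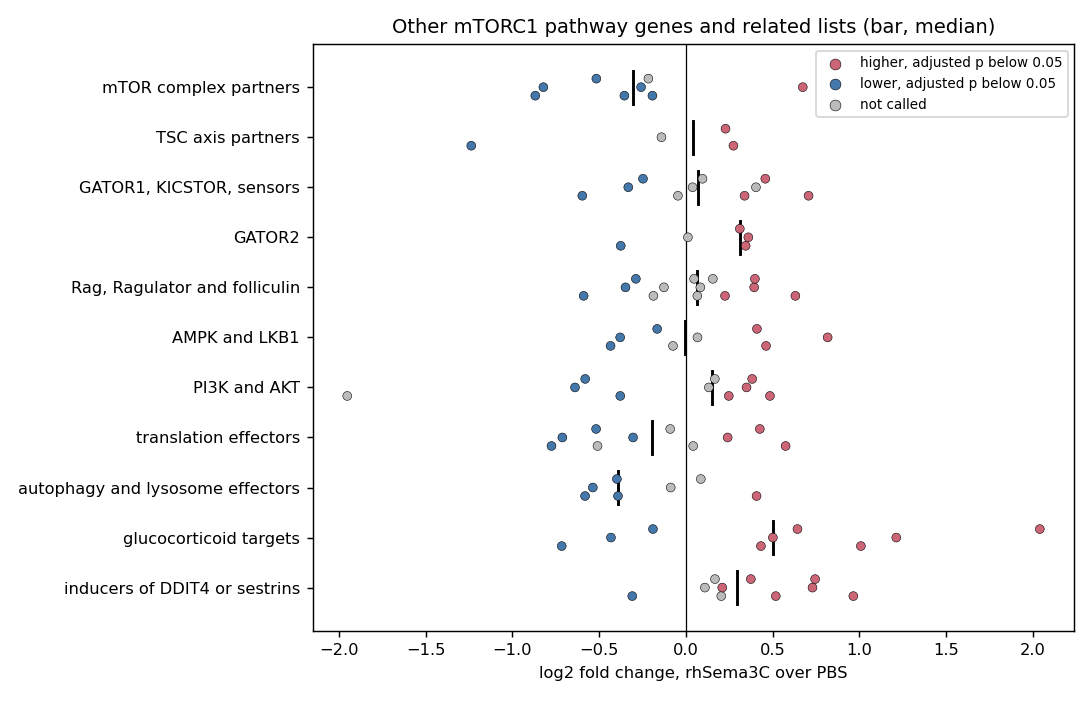
Each point is a tested gene of a pathway list, placed by its log2 fold change, rhSema3C over PBS, with red and blue for genes higher and lower at an adjusted p below 0.05 and a bar for the median of the list. The medians run from -0.39 for autophagy and lysosome effectors to 0.50 for glucocorticoid targets, and the point near -1.95 in the PI3K row is PIK3R2, which was not called and whose counts divide with a readthrough model.

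Known inducers of DDIT4 or the sestrins and targets of the glucocorticoid receptor were described as well. Of the 10 inducers, 6 rose and 1 fell, with a median log2 fold change of 0.29, and 8 rose and none fell with the GC and length trend removed. In that fit 3593 of all 14178 genes tested were higher and 4489 lower. ATF4, the effector of the integrated stress response, rose from 331.5 ± 5.38 to 647.0 ± 11.0 CPM (log2 fold change 0.96, SE 0.04, edgeR adjusted p of 1.44e-14). NFE2L2 (NRF2), the oxidative stress factor, rose from 37.9 ± 1.17 to 63.5 ± 4.34 CPM (0.74), and HIF1A, the hypoxia factor, from 495.2 ± 18.4 to 821.2 ± 72.9 CPM (0.73). FOXO4 was at -0.31 and did not pass with the trend removed (adjusted p of 0.45).

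Of 9 tested glucocorticoid targets 6 rose and 3 fell, with a median of 0.50, and 6 and 2 with the GC and length trend removed and on TPM. TSC22D3 (GILZ) rose from 16.3 ± 1.80 to 67.1 ± 1.40 CPM (log2 fold change 2.04, edgeR adjusted p of 1.79e-15) and KLF9 from 21.6 ± 1.30 to 49.9 ± 2.61 CPM (1.21), while MT2A and SGK1 fell, with log2 fold changes of -0.72 and -0.43. Whether any of these factors acted on DDIT4 or the sestrins was not tested.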

How the data were processed

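Per the labels, RNA of LX-2 cells was extracted with TRIzol and mRNA libraries were made, with 3 samples of rhSema3C and 3 of PBS. For each gene the authors deposited a raw count and an FPKM value per sample, the latter normalised by them for transcript length and sequencing depth. The study's methods name a NovaSeq instrument, Cufflinks and cuffmerge with thresholds on fold change and p. The aligner, counting tool, strand setting and build are not given in the sources used here, and the gene coordinates lie on GRCh38.

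The test was edgeR's quasi-likelihood test on deposited counts of genes whose mean FPKM was 0.5 or more, with TMM factors, a trended dispersion and robust estimation, and Benjamini-Hochberg adjustment over all 14178 genes. The common biological coefficient of variation was 0.117. A call is an adjusted p below 0.05, and a fold change above 2 was applied in addition where stated. The labels call the replicates biological without saying whether they were separate cultures, so p-values measure only the spread between these samples, and reads were not counted by molecular identifiers. Ratios of levels were formed from FPKM within each sample, so their size rests on the lengths used by the authors, which are not given.

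Alternatives were median-of-ratios factors, library size alone, DESeq2, limma on log2(FPKM + 1), log2(FPKM + 0.1) and log2(TPM + 1), no filter, a mean FPKM of at least 5, a block for the replicate number, and the omission of each sample in turn. Removing the trend of log2 counts with GC content and length, from GENCODE transcripts, was added after the data were seen. The fits were tested on simulated data. Fits were run in R 4.3.3 with DESeq2 1.42.0, edgeR 4.0.16 and limma 3.58.1.

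The 10 genes and the lists were chosen with earlier results of these data known. Named from each list were the 2 largest rises and 2 largest falls at an adjusted p below 0.05, every gene of a list of 5 or fewer, and the 5 genes nearest in pattern to DDIT4, SESN2 and EIF4EBP1. Names of clones, antisense RNAs and LINC RNAs were not taken as symbols. EIF4EBP2, EIF4EBP3, EIF4E, HIF1A, PIK3R2, MAPKAP1, PRR5 and PRR5L fall outside this rule, and their choice came after their values were seen. TTR of the hepatocyte list was not analysed here, and results for some genes are not reported here.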

Additional observations from a re-analysis of the deposited data

How the results depend on the processing

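Over 17 settings, the reported one included, DDIT4, SESN1, SESN2, TSC1, RPTOR and EIF4EBP1 kept the sign of their fold change in each fit that tested them. Beside the 1 of the 10 genes called lower (RPTOR), TSC2 was called as well with median-of-ratios factors and with DESeq2, which gives 2, and leaving out each sample in turn gave 1 to 2, the 2 without PBS replicate 1. Against 5 called higher, 6 were with the GC and length trend removed, where TSC2 was called higher, and 6 without the filter, where SESN3 was. At a mean FPKM of at least 5, 3 were called higher, since SESN1 and TSC1 are under that level. All lists together held 108 tested genes, with the inducers, the glucocorticoid targets and genes not reported here. Of these, 44 were higher and 35 lower, and limma on log2(TPM + 1) gave 61 and 21, where 6941 of all 14178 genes tested were higher and 2429 lower. In the 9 lists of mTORC1 genes alone, 24 were higher and 28 lower, and 37 and 17 on TPM. Over all genes, 458 were higher and 283 lower at a fold change above 2. These counts were 854 and 462 without the filter, 165 and 66 at a mean FPKM of at least 5, 169 and 69 with limma on log2(FPKM + 1), 635 and 186 with library size alone, 555 and 171 on log2(FPKM + 0.1), and 587 and 86 on TPM. Of all calls, 61.3% were higher with limma on log2(FPKM + 1) and 61.2% on log2(FPKM + 0.1).

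The deviations of same-numbered samples from their group means had correlations of 0.035, 0.094 and -0.023. Those of the other pairs ran from -0.114 to 0.0722. Whether same-numbered samples shared a culture or batch cannot be told from so few samples. With the replicate block, 5 of the 10 genes were called higher and 1 lower, and 44 and 33 genes of all lists together. DEPTOR, with 15 to 36 counts per sample and a within-group SD of log2 CPM of 0.56, is limited by low counts and by the spread between samples.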

Other observations

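PIK3R2, a regulatory subunit of PI3K, was read at 80.8, 69.7 and 63.8 CPM in PBS replicates 1, 2 and 3 and at 0.383, 0.361 and 54.9 CPM in the rhSema3C replicates. Replicates 1 and 2 of rhSema3C were near 0 and replicate 3 was close to the PBS samples, so the groups did not overlap but the gene was not called (log2 fold change -1.95, SE 1.85, edgeR adjusted p of 0.42). A readthrough model on the same strand, AC007192 (ENSG00000268173), spans the gene, and its counts were 203, 2747 and 2952 in the PBS replicates against 6969, 6225 and 1690 with rhSema3C. Together the raw counts of PIK3R2 and the readthrough were 7113, 7606 and 7150 with PBS and 7002, 6258 and 6265 with rhSema3C. The total counts of these samples were 89245585, 73072602 and 68267808 with PBS and 83837699, 88518639 and 80313774 with rhSema3C. PBS replicate 3, with the lowest total, held more of the summed counts than any rhSema3C sample. The sums therefore do not show an equal level in the groups. The near-0 values of PIK3R2 went with high counts on the readthrough in the same samples, and no change of PIK3R2 itself is read from them.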
